A study of Rattus norvegicus with 18 samples.

Results

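The 9 genes described here carry the cyclic AMP signal of striatal projection neurons: the G protein subunits Gnal and Gng7, the adenylyl cyclase Adcy5, the phosphodiesterases Pde10a, Pde1b and Pde2a, the G protein regulator Rgs9 and the kinase targets Ppp1r1b and Arpp21. Each was the array feature whose platform symbol was exactly that name, and where a name had several features the one with the highest mean was kept. All 9 were found among the 22093 genes measured, from 11 features, and all 9 had a mean above 6.37, the median log2 value of the array's negative control features. The unkept features of Gnal and Pde10a had means of 5.25 and 4.49, below that median.

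RNA came from the nucleus accumbens, the ventral striatum, of 18 male Sprague-Dawley rats in a study of methamphetamine self-administration with footshock as its adverse consequence. Each rat gave 1 whole-transcript Affymetrix array, and the rats were labelled control, shock resistant or shock sensitive, with 6 in each group, chosen for the quality and integrity of their RNA. In such work the names refer to whether a rat kept taking the drug or cut down once it was shocked. What the control rats received, how much drug each rat took, when tissue was taken and the rats' ages are not stated in the labels. Values are the deposited ones, taken as log2 from their range, so a difference of 1 stands for a 2-fold difference in signal, and signals are compared between groups but not between genes.

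In striatal projection neurons dopamine acts through D1 receptors in the direct pathway, and adenosine through its Adora2a receptors in the indirect pathway, on a G protein whose alpha subunit is made by Gnal. That protein turns on adenylyl cyclase 5, the cyclic AMP it makes activates protein kinase A, and phosphodiesterases break the cyclic AMP down. Repeated psychostimulant exposure is known to act on this pathway in the accumbens, and several of its components are so enriched in projection neurons that they also serve as markers of them.

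Control replicate 1 and shock sensitive replicate 4 held the lowest 2 values of the 18 arrays for 9 of the 9 genes, whereas this was so for 7.42% of the 11573 genes at or above the negative control median. The mean of 17 other striatal projection neuron markers, among them the dopamine receptors Drd1 and Drd2, was 10.77 and 10.67 on these arrays and 11.40 to 12.69 on the other 16. Of those 17 markers, 15 were below every other array on both. Drd1 had 11.27 and 11.09 there against 12.20 to 13.45 elsewhere. Of 10 septal and hypothalamic neuron markers, 5 were above every other array on both, as 5.57% of the 11573 genes were. The mean of that marker list was 8.59 on each against 6.70 to 7.74. Among them Oxt, the oxytocin precursor, read 10.59 and 12.83 against 5.86 to 9.23, and Slc17a6, a glutamate transporter of subcortical neurons, read 9.05 and 9.90 against 6.50 to 8.39. Avp and Hcrt also read highest on these arrays but belonged, with Pmch and Agtr1a, to the list members whose means were below the negative control median. In the other lists, 2 of 9 cortical markers were below every other array on both. Above every other array were 1 of 10 interneuron and 1 of 5 oligodendrocyte precursor markers. That interneuron marker had a mean below the negative control median. The astrocyte, myelinating oligodendrocyte, microglia, endothelial, choroid plexus and red cell lists had none. The part of these other cells in the results was not tested, and in bulk tissue fewer cells of a type cannot be told apart from less RNA per cell. Results are therefore given with these 2 arrays and without them. Because low values of the 9 genes themselves mark these arrays, p-values without them are descriptions only.

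All 9 genes had the same order of group means, highest in shock resistant rats, then in controls, then in shock sensitive rats. The means of the 9 genes together were 14.04 ± 0.24 in shock resistant, 13.70 ± 0.62 in control and 13.49 ± 0.58 in shock sensitive animals (SD over 6). This order held for 16.4% of the genes at or above the negative control median. No neighbouring groups in this order were told apart by the test: none of the 9 genes passed an adjusted p of 0.05 in any comparison (limma, Benjamini-Hochberg over all 22093 genes). The F test over the 3 groups gave the 9 genes adjusted p-values of 0.594 to 0.760, and 2 of all genes, 0.00905%, passed it. None of the 9 had an unadjusted p under 0.05 in it, where 8.61% of all genes did. That count was 4 when control replicate 1 or shock sensitive replicate 1 was left out, beside 2260 and 2282 of all 22093 genes. It was 1 without control replicate 3, beside 1868, and 3 with array weights, beside 2568. With the mean of the other striatal markers as a term it was 1, beside 1780. It was 2 without both low arrays, beside 1888, which is a description only. Without the 2 low arrays 6 of the 9 genes kept the order, against 13.2% of genes, and Pde2a, Rgs9 and Arpp21 did not.

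**Figure D1:**
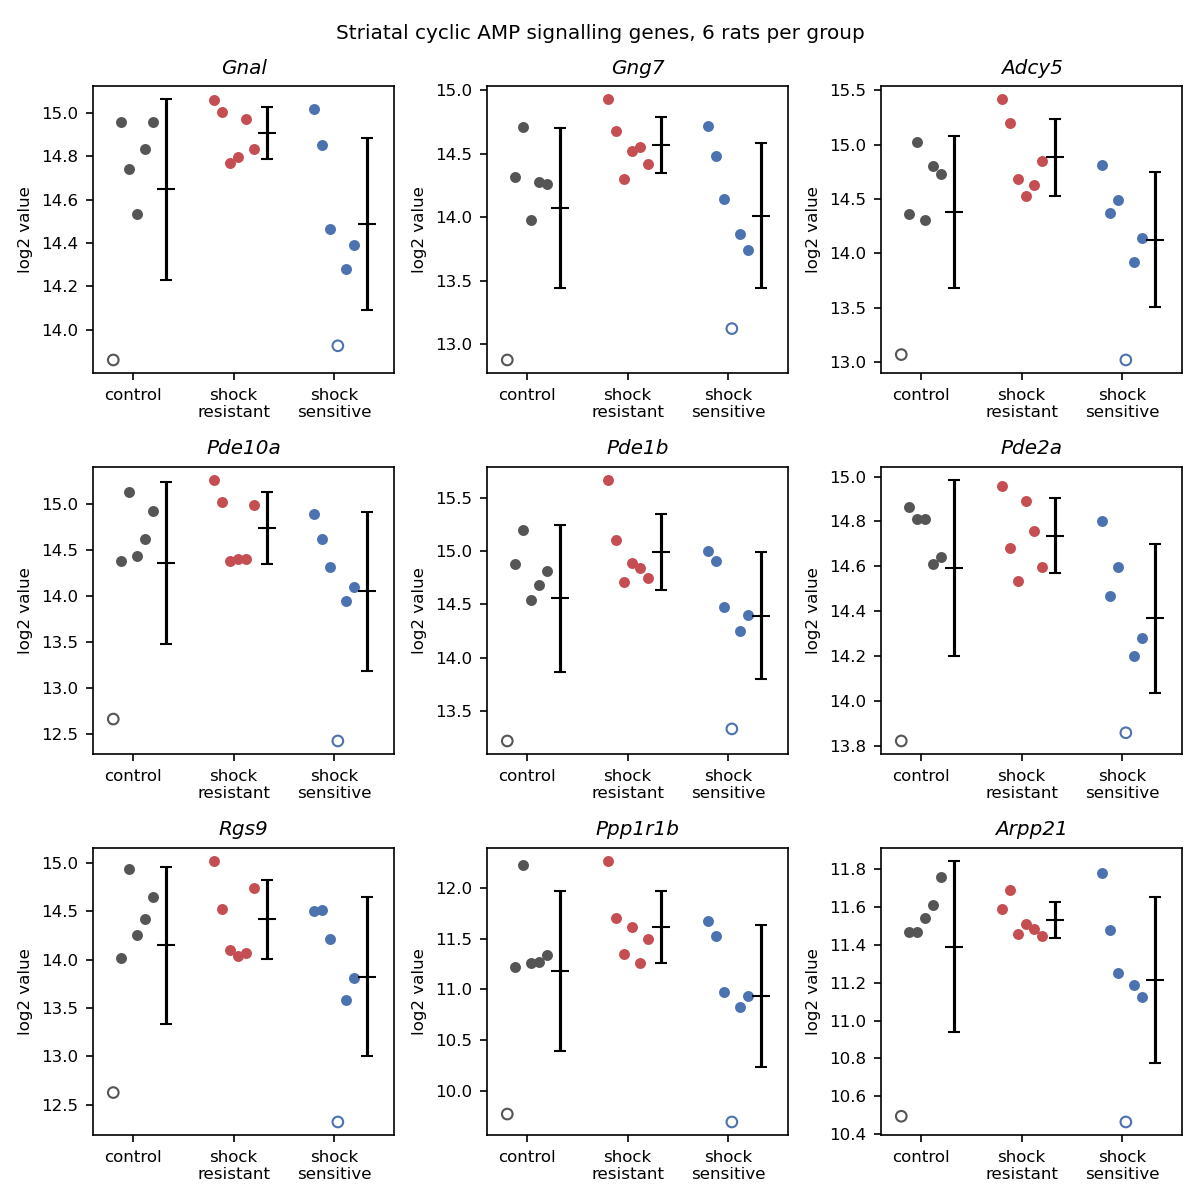
Deposited log2 value (vertical axis, its own scale for each gene) of the 9 genes on each array, by group (horizontal axis). Filled circles are rats, open circles are control replicate 1 and shock sensitive replicate 4, and each bar is the group mean ± SD with n = 6. The open circles are the lowest 2 points in every panel, and the shock resistant points overlap the other groups in every panel.

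Gnal encodes the alpha subunit of the stimulatory G protein of the striatum. Its log2 values ran from 13.86 to 14.96 with a median of 14.79 in controls, from 14.77 to 15.06 with a median of 14.90 in shock resistant rats, and from 13.93 to 15.02 with a median of 14.43 in shock sensitive rats. Every shock resistant rat was above the shock sensitive median, though the groups overlapped, because shock sensitive replicates 1 and 2 were as high as resistant rats. The shock resistant mean was 0.42 ± 0.18 (SE) above the shock sensitive mean, with a 95% interval of 0.04 to 0.80 and an adjusted p of 0.763. Gng7 encodes a gamma subunit that, in mice, is needed for normal amounts of the Gnal protein. Its values were 12.88 to 14.70, median 14.27, in controls, 14.30 to 14.93, median 14.53, in shock resistant rats and 13.12 to 14.71, median 14.00, in shock sensitive rats. All 6 shock resistant rats were above the control median, as they were for Ppp1r1b alone of the other genes. For Ppp1r1b the lowest of them was at 11.2622 against a control median of 11.2621. This pattern held for 4.90% of genes at or above the negative control median. All 6 were above or all 6 below for 15.3% of those genes. Gng7 had the smallest p of the 9 when shock resistant rats were set against controls, a difference of 0.50 ± 0.27 with an unadjusted p of 0.0814 and an adjusted p of 0.486.

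Adcy5 encodes the main adenylyl cyclase of the striatum. Control rats had values of 13.07 to 15.02, median 14.54, shock resistant rats 14.52 to 15.42, median 14.77, and shock sensitive rats 13.02 to 14.81, median 14.25. Shock resistant replicates 1, 2 and 6 were above every shock sensitive rat, and the other 3 resistant rats were inside the shock sensitive range. Adcy5 had the largest difference of the 9 genes between shock resistant and shock sensitive rats, 0.76 ± 0.31 with a 95% interval of 0.12 to 1.41, which is 1.69-fold. Its unadjusted p was 0.0234 and its adjusted p 0.753, and without the 2 low arrays the difference was 0.54 ± 0.18 with an adjusted p of 0.966.

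Pde10a encodes a phosphodiesterase of both cyclic nucleotides that is strongly enriched in striatal projection neurons. Its log2 values spanned 12.66 to 15.13 in controls, with a median of 14.53, 14.38 to 15.26 in shock resistant rats, with a median of 14.70, and 12.42 to 14.90 in shock sensitive rats, with a median of 14.21. Pde10a varied most of the 9 genes, with an SD over 18 arrays of 0.76, larger than that of 99.7% of genes at or above the negative control median. The low arrays carried much of it: control replicate 1 minus the median of the other controls was -1.96, and shock sensitive replicate 4 minus the median of the rest of its group was -1.89. Without them the SD of Pde10a was 0.38, and those of Ppp1r1b, Rgs9 and Adcy5 were larger, at 0.41, 0.40 and 0.39. Shock resistant rats were 0.69 ± 0.40 above shock sensitive rats, with an adjusted p of 0.790, and 0.37 ± 0.20 above without the low arrays.

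RefSeq promoters (assembly GRCr8, 250 bases before to 50 after a start) were matched for 7 of the 9 genes, which gave 9 promoters. They are shown for Pde10a, which has 2 listed starts, and for Rgs9, the gene whose values followed Pde10a most closely. The search was for the cyclic AMP response element TGACGTCA and its core TGACG on either strand, as CGTCA on the other, with the core also counted inside the full element. Capitals mark the core.
Pde10a, outer start, chr1:54765619-54765918, minus strand: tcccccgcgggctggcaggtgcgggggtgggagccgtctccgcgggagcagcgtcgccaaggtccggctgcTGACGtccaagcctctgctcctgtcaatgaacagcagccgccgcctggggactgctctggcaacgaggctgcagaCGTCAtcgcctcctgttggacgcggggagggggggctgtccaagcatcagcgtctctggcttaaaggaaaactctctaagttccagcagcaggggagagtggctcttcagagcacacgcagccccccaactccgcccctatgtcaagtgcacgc
Pde10a, inner start, chr1:54501157-54501456, minus strand: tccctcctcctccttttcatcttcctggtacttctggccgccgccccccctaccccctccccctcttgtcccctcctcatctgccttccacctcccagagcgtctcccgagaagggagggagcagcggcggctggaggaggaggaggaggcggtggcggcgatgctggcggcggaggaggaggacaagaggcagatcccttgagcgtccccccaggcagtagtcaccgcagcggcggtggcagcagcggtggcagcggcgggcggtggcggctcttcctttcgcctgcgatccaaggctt
Rgs9, chr10:94770338-94770637, minus strand: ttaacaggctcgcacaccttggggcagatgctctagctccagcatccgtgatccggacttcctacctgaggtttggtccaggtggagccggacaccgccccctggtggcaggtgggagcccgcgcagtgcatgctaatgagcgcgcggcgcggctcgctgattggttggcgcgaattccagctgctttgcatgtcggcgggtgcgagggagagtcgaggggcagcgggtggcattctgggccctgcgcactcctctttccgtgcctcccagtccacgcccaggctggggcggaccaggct
Only the outer Pde10a promoter of the 9 held the core, 2 times, beginning at -179 and -104 from the start. Of 33469 promoters of the same length 21.2% held the core and 4.96% held it at least 2 times. The full element was in 0 of the 9 promoters and in 1.83% of all, and a match of letters is a description only.

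Pde1b encodes a phosphodiesterase switched on by calcium and calmodulin. Values ran from 13.22 to 15.20, median 14.74, in controls, from 14.71 to 15.67, median 14.87, in shock resistant rats, and from 13.33 to 15.00, median 14.44, in shock sensitive rats. The highest array was shock resistant replicate 1, as it was for 8 of the 9 genes. Shock resistant rats exceeded shock sensitive rats by 0.60 ± 0.30, with a 95% interval of -0.036 to 1.23 and an adjusted p of 0.769. Pde2a encodes a phosphodiesterase that cyclic GMP activates and that is made in many neurons outside the striatum too. It spanned 13.82 to 14.87, median 14.73, in controls, 14.53 to 14.96, median 14.72, in shock resistant rats and 13.86 to 14.80, median 14.38, in shock sensitive rats. Medians of controls and shock resistant rats were thus alike, and their means differed by 0.14 ± 0.17 (adjusted p = 0.753). Pde2a had the smallest SD over the arrays, 0.33, above that of 92.7% of genes at or above the negative control median. Without the 2 low arrays Arpp21 had the smallest, 0.18, and Pde2a with 0.21 was above 80.2% of those genes. When the 2 low arrays were left out, all 5 remaining shock sensitive rats were below the control median and 4 of them below every remaining control. That difference of shock sensitive rats from controls was -0.28 ± 0.11, with an unadjusted p of 0.0198 and an adjusted p of 0.657. It was the 1 gene of the 9 with an unadjusted p under 0.05 there, where 6.69% of all genes had one.

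Rgs9 encodes a protein that speeds the switching off of G proteins, and its long splice form is enriched in striatum. The platform annotation does not say which form the feature reads. Controls had values of 12.63 to 14.93, median 14.34, shock resistant rats 14.04 to 15.02, median 14.31, and shock sensitive rats 12.32 to 14.51, median 14.01. In 3 shock resistant rats, replicates 3, 4 and 5, values lay between 14.04 and 14.10, below the control median, while replicates 1, 2 and 6 were above every shock sensitive rat. The shock resistant mean was 0.59 ± 0.38 above the shock sensitive mean (adjusted p = 0.810) and 0.27 ± 0.38 above the control mean (adjusted p = 0.806). Without the low arrays the difference from shock sensitive rats was 0.29 ± 0.22, and that from controls was -0.038 ± 0.22.

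Ppp1r1b encodes the striatal phosphoprotein that inhibits protein phosphatase 1 once protein kinase A has phosphorylated it. Its values were 9.77 to 12.22 in controls, median 11.26, 11.26 to 12.27 in shock resistant rats, median 11.56, and 9.69 to 11.68 in shock sensitive rats, median 10.95. Control replicate 3 and shock resistant replicate 1 were nearly level at the top, at 12.22 and 12.27. Shock resistant rats were 0.68 ± 0.34 above shock sensitive rats, 1.60-fold with a 95% interval on the log2 scale of -0.041 to 1.40 and an adjusted p of 0.769. Arpp21 encodes another cyclic AMP-regulated phosphoprotein of these neurons, whose phosphorylated form binds calmodulin. Controls read 10.50 to 11.76 with a median of 11.50, shock resistant rats 11.45 to 11.69, median 11.49, and shock sensitive rats 10.47 to 11.78, median 11.22. The highest Arpp21 value was in a shock sensitive rat, replicate 1, so that no shock resistant rat was above every shock sensitive one. Arpp21 had the smallest difference of the 9 genes between those groups, 0.31 ± 0.20 with an adjusted p of 0.805.

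**Figure D2:**
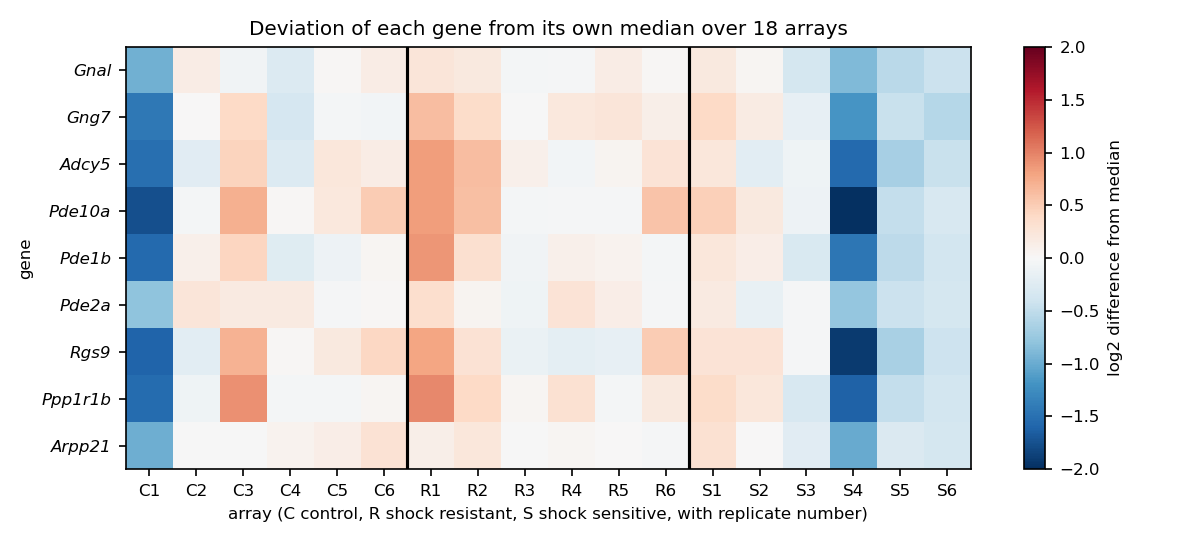
Each gene's log2 value minus its own median over 18 arrays (colour, from -2 in blue to 2 in red), with genes in rows and arrays in columns grouped as control, shock resistant and shock sensitive. Control replicate 1 and shock sensitive replicate 4 are blue for all 9 genes, and shock resistant replicates 1 and 2 and shock sensitive replicate 1 lie above the median for all 9.

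Arrays tended to be high or low for all 9 genes at once. Shock resistant replicates 1 and 2 and shock sensitive replicate 1 were above each gene's own median for 9 of 9 genes. Shock sensitive replicates 3, 5 and 6, apart from the low replicate 4, were below it for 9 of 9, by 0.28 to 0.66 in replicate 5 and by 0.32 to 0.56 in replicate 6. Shock resistant replicates 3 to 6, controls 2 to 6 and shock sensitive replicate 2 were mixed, with some genes above and some below. The SD within a group was smallest in shock resistant rats for all 9 genes, as it was for 37.5% of genes, and without the low arrays for 4 of 9 against 26.2%.

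Shock resistant rats against controls asked how rats that resisted the shock stood to the control group. The 9 genes were all higher in shock resistant rats, by 0.14 for Arpp21 to 0.50 for Adcy5, with a median of 0.38 beside 0.010 for all genes, and 54.4% of all genes were higher. For the genes at or above the negative control median the median was -0.030. No gene of the 9 passed the adjusted threshold, which 4 genes or 0.0181% did, and 0 of 9 had an unadjusted p under 0.05 where 11.4% of all genes did. With only the 11573 genes at or above the negative control median in the fit, 1038 of them did. Adjusted p-values of the 9 among all genes ran from 0.486 to 0.806. The median of the 9 rested on control replicate 1. Without that array and shock sensitive replicate 4 it was 0.10, with Gng7 at 0.26, Adcy5 at 0.24 and Pde1b at 0.17 among 6 higher genes. Pde2a, Rgs9 and Arpp21 were then at -0.010, -0.038 and -0.040. Still 0 of 9 had an unadjusted p under 0.05, where 11.8% of all genes did. With control replicate 3 left out, 1 of the 9 and 2601 of all 22093 genes did.

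Shock sensitive rats against controls gave the opposite sign for all 9 genes. Differences ran from -0.33 for Rgs9 and -0.31 for Pde10a to -0.057 for Gng7, with a median of -0.23 beside 0.013 for all genes, of which 56.9% were higher. For the genes at or above the negative control median the median was -0.012. None passed the adjusted threshold, as 0% of all genes did, and 0 of 9 had an unadjusted p under 0.05 where 6.09% of genes did. The adjusted p-values were 0.893 to 0.984. Without control replicate 1 the count under 0.05 was 3 of 9, beside 1953 of all 22093 genes. With array weights it was 1 of 9, beside 2327. The size of the differences depended on single arrays, with a median of -0.43 without control replicate 1, -0.026 without shock sensitive replicate 4 and -0.28 without both. Both comparisons use the same 6 control arrays, so a low control array raises the difference in both.

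Shock resistant against shock sensitive rats, which shares no control array, had the largest differences. All 9 genes were higher in shock resistant rats, by 0.31 to 0.76 with a median of 0.59 beside -0.003 for all genes, of which 48.4% were higher. For the genes at or above the negative control median the median was -0.019. For each of the 9 all 6 resistant rats were above the shock sensitive median, a pattern of 7.44% of genes at or above the negative control median. All 6 were above or all 6 below it for 16.5% of those genes. Without the 2 low arrays the pattern was lost for Rgs9 alone, with 3 of 6 resistant rats above that median. For none of the 9 did the groups separate fully, as 0.213% of all genes did. No gene passed the adjusted threshold, 0% of all genes, and the adjusted p-values were 0.753 to 0.810. Adcy5, Gnal and Pde2a had unadjusted p-values of 0.0234, 0.0338 and 0.0404, so 3 of 9 were under 0.05 where 6.4% of all genes were and 2.63% were so and higher. With only the 11573 genes at or above the negative control median in the fit, 1006 of them were under 0.05. The count of the 9 moved with single arrays, controls included, since they enter the pooled estimate of the spread. It was 0 without shock sensitive replicate 4 or shock resistant replicate 1, and 1 without shock resistant replicate 2 or 5 or shock sensitive replicate 5 or 6. It was 5 without control replicate 3 and 6 without shock sensitive replicate 2, beside 1397 and 1504 of all 22093 genes. It was 8 when either shock sensitive replicate 1 or control replicate 1 was left out. With all arrays it was 6 with array weights, beside 1686 genes, and 6 with 2 groups alone in the fit, beside 1362. The number of all 22093 genes under 0.05 moved too, from 878 without shock sensitive replicate 4 to 2020 without shock sensitive replicate 1. It was 1656 without control replicate 1. Without both low arrays the median difference was 0.37, from 0.16 for Arpp21 to 0.54 for Adcy5, and Adcy5, Gnal, Gng7, Pde1b and Pde2a were under 0.05 unadjusted where 4.84% of genes were. Their adjusted p was 0.966. The 2 arrays left out are those on which the 9 genes themselves read lowest. Leaving them out lowered the SD over the arrays from 0.76 to 0.38 for Pde10a and from 0.33 to 0.21 for Pde2a. For genes at or above the negative control median the median SD went from 0.146 to 0.137. The count without these arrays is therefore a description only.

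**Figure D3:**
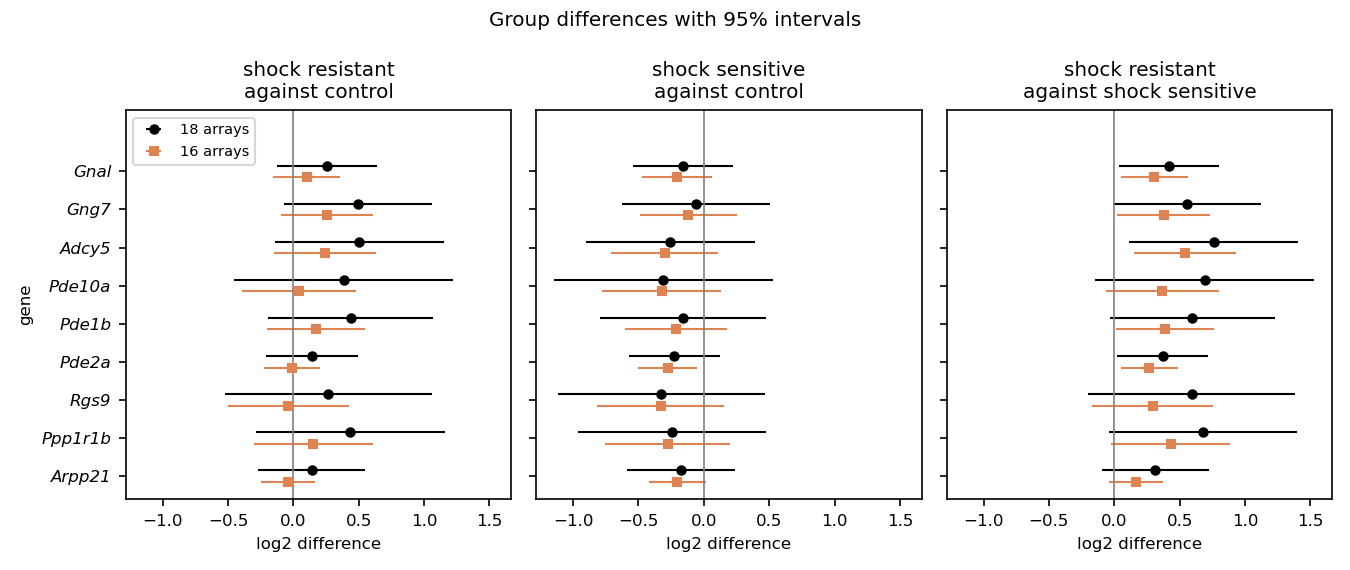
Difference of group means on the log2 scale (horizontal axis) for each gene (vertical axis) in the 3 comparisons. Black circles are limma estimates from 18 arrays and orange squares those without control replicate 1 and shock sensitive replicate 4, with 95% intervals that are not adjusted for the number of genes. All black circles lie above 0 in the left and right panels and below 0 in the middle panel, and in the right panel only Adcy5, Gnal and Pde2a have black intervals that leave out 0.

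Levels of the 9 genes followed those of the other projection neuron markers. Pearson's r with the mean of the 17 markers over 18 arrays ran from 0.90 for Arpp21 to 0.99 for Pde1b, with permutation p-values of 1e-05, the smallest that 100000 permutations can give, for 8 genes and 3e-05 for Arpp21, or 1.13e-05 and 3e-05 adjusted over the 9. Spearman's rho was 0.66 for Arpp21 to 0.97 for Pde1b, with permutation p-values from 1e-05 to 0.0033. Without the 2 arrays farthest from the median, which were the 2 low ones, r was 0.67 for Arpp21 and 0.72 for Rgs9 at the bottom and 0.97 for Pde1b at the top. Within groups r was 0.87 to 0.99 in controls, 0.63 to 0.99 in shock resistant and 0.93 to 0.99 in shock sensitive rats. Of the 27 exact permutation tests within groups, 6 of 9, 5 of 9 and 9 of 9 were under 0.05 after adjustment over the 27, and by rho 2, 2 and 9 were. Leaving out the 2 farthest rats of a group gave r of -0.20 to 1.0 in controls, -0.43 to 0.94 in shock resistant and 0.67 to 0.98 in shock sensitive rats, so within control and shock resistant rats the relation of some genes rested on those rats.

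**Figure D4:**
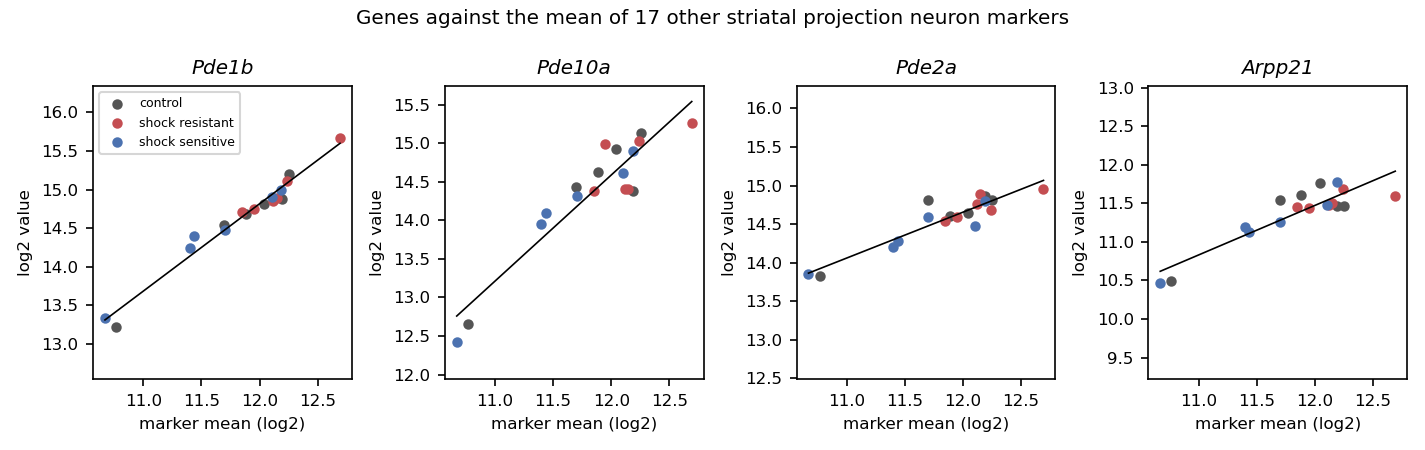
Log2 value of Pde1b, Pde10a, Pde2a and Arpp21 (vertical axes, of equal span) against the mean of 17 other striatal projection neuron markers (horizontal axis, log2), with 1 point per rat coloured by group and a least squares line over 18 arrays. Pde1b lies closest to its line, with r = 0.99, and Pde10a has the steepest line, 1.37 per unit of the marker mean, against 0.59 for Pde2a.

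The genes differed in how far they moved with the marker mean. Pde10a changed by 1.37, Rgs9 by 1.25, Ppp1r1b by 1.24, Adcy5 by 1.14, Pde1b by 1.13 and Gng7 by 1.02 on the log2 scale for each unit of the marker mean. Gnal, Arpp21 and Pde2a moved less, by 0.67, 0.64 and 0.59. Without the 2 low arrays the slope of Pde10a was 0.92 and that of Rgs9 0.87, while those of Ppp1r1b and Pde1b were 1.07 and 1.0 and that of Arpp21 was 0.38. The marker mean itself was 12.17 ± 0.29 in shock resistant, 11.81 ± 0.55 in control and 11.58 ± 0.56 in shock sensitive rats. Of the 17 markers 16 were higher in shock resistant than in shock sensitive rats, with a median difference of 0.65, and 0 passed the adjusted threshold. With the marker mean as a term in the fit, shock resistant rats had 3 of the 9 genes higher and 6 lower than shock sensitive rats, with a median of -0.055 and adjusted p-values of at least 0.984. Adcy5 was then 0.13 ± 0.15 higher and Rgs9 -0.18 ± 0.19. Against controls the medians were -0.019 for shock resistant rats and -0.012 for shock sensitive rats in that fit. Gng7 had the smallest unadjusted p there, 0.0148 for a difference of 0.17 ± 0.063 between shock sensitive rats and controls, with an adjusted p of 0.741.

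Among themselves the 9 genes correlated over 18 arrays in all 36 pairs. Pearson's r was 0.84 for Pde2a with Rgs9 to 0.99 for Pde10a with Rgs9, with a median of 0.92, and permutation p-values adjusted over the 36 pairs were at most 0.00023. Spearman's rho ran from 0.50 for Pde2a with Rgs9 to 0.96 for Gng7 with Pde1b, with an adjusted permutation p of at most 0.037. Without the 2 low arrays the same pairs were at the ends, with r of 0.52 and 0.96. The arrays are shared by all pairs, so the pairs are not independent.

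Of 11564 other genes at or above the negative control median, the one whose values were most like the mean of the 9 was Bcl11b, a transcription factor of projection neuron development that was also among the 17 markers, with r = 0.99 over 18 arrays and 0.97 without the low arrays. Fbxl16, Ngef, Kcna4, Actn2 and Dlgap2 followed with r from 0.98 to 0.97. Kcna4 encodes a potassium channel subunit and Dlgap2 a scaffold of the postsynaptic density. At the other end were Ralbp1l2 and Cacna1g, each with r = -0.95, and Parp8 and Cadps2, each with r = -0.94. Cacna1g encodes a low-voltage-activated calcium channel and read 8.72 and 8.56 on the 2 low arrays against 7.21 to 8.28 on the others. In all, 464 genes had r of 0.8 or more and 217 had r of -0.8 or less.

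The rest of the cyclic AMP pathway was split between higher and lower genes. Of 73 other listed genes, such as further G proteins, cyclases, phosphodiesterases, kinase subunits and kinase targets, 72 were measured and 67 had means above the negative control median, all but Adcy4, Adcy7, Adcy10, Pde4c and Pkib. Between shock resistant and shock sensitive rats 39 were higher and 33 lower with a median of 0.008, against controls shock resistant rats had 29 higher and 43 lower with a median of -0.016, and shock sensitive rats 30 higher and 42 lower with a median of -0.030. None of the 72 passed the adjusted threshold in any of the 3 comparisons. Unadjusted p-values under 0.05 in shock resistant rats against controls were found for 2 higher and 4 lower pathway genes, where 7.22% and 4.2% of all genes were so placed. In shock sensitive rats against controls they were found for 0 higher and 1 lower, beside 4.56% and 1.53% of all genes, and in shock resistant against shock sensitive rats for 5 higher and 8 lower, beside 2.63% and 3.77%. Without the 2 low arrays these counts were 1 higher and 4 lower, 0 and 4, and 5 and 1 in the same order of comparisons, and with the marker mean in the fit the last was 0 and 0.

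The 4 pathway genes with the smallest p in each comparison are named for their values. Pde7b, a cyclic AMP-specific phosphodiesterase, was 14.68 ± 0.38 in shock resistant rats and 13.98 ± 0.60 in controls, a difference of 0.70 ± 0.31 (SE) with an adjusted p of 0.411. All 6 shock resistant rats were above the control median, as for 4.90% of genes at or above the negative control median. Of the 6, 4 were above every control. The difference was 0.48 without the low arrays and 0.27 with the marker mean in the fit. Pde1a, which encodes another calmodulin-dependent phosphodiesterase, had the other sign, -0.42 ± 0.15 (adjusted p = 0.335) and -0.47 without the low arrays. Prkar2a, a regulatory subunit of protein kinase A, differed by -0.28 (adjusted p = 0.353), and the G protein subunit gene Gnb2 by 0.21 (adjusted p = 0.362). In shock sensitive rats against controls Pde8b, Rapgef2 and Arpp19 differed by -0.38, -0.17 and -0.40, each with an adjusted p of 0.807. All 6 shock sensitive rats were below the control median for each. All 6 were above or all 6 below it for 9.57% of genes at or above the negative control median. Adcy7 differed by 0.17 but was below the negative control median. In shock resistant against shock sensitive rats Rgs2, another G protein regulator, was 11.03 ± 0.18 and 10.46 ± 0.50, a difference of 0.56 ± 0.20. All 6 shock resistant rats were above the shock sensitive median for Rgs2, as for 7.44% of genes at or above the negative control median. Adcy2, Gnaz and the catalytic kinase subunit gene Prkaca differed there by -0.26, -0.23 and -0.36. The 4 adjusted p-values were 0.753.

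Markers of other cells were read in the comparison with the largest differences, shock resistant against shock sensitive rats, and 0 of them passed the adjusted threshold. Higher and lower genes numbered 1 and 8 of 9 cortical excitatory markers, 1 and 9 of 10 septal and hypothalamic, 4 and 6 of 10 interneuron, 1 and 9 of 10 astrocyte, 1 and 8 of 9 myelinating oligodendrocyte, and 0 and 5 of 5 oligodendrocyte precursor markers. They numbered 2 and 6 of 8 microglia, 4 and 1 of 5 endothelial, 8 and 2 of 10 choroid plexus and 0 and 6 of 6 red cell markers, and 9 of the 10 choroid plexus genes had means below the negative control median. Median differences were -0.22 for the septal and hypothalamic and -0.42 for the red cell list, against the 0.59 of the 9 genes. Without the 2 low arrays the septal and hypothalamic median was -0.041, with 3 genes higher and 7 lower, the interneuron split was 7 higher and 3 lower, and the red cell median was -0.38 beside 0.37 for the 9 genes. Of the defining markers of these cells, Slc17a7 of cortical neurons ran from 6.34 to 10.54 over the 18 arrays, and Ttr of choroid plexus from 5.67 to 16.58, with its highest value in shock resistant replicate 4. Aqp4 of astrocytes was 9.47 ± 0.15 in shock resistant and 9.69 ± 0.17 in shock sensitive rats. Chat of cholinergic interneurons had means of 7.75 and 7.79, Mbp of myelin 9.95 and 10.05, Cx3cr1 of microglia 11.61 and 11.84, and Cldn5 of endothelium 8.91 and 8.87 in the same order. The part of these cells in the differences of the 9 genes was not tested.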

How the data were processed

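The deposited table holds 1 value per feature and array, and its range is that of log2 values. The submitters' processing notes name Affymetrix Expression Console, and the labels' protocols give 100 ng of RNA per array. How the authors summarised, normalized and filtered the signals is not stated there, and array medians of 5.43 to 5.56 lay close together. Of 70580 features 1738 were controls. Symbols came from the platform annotation, updated through gene numbers with the RefSeq table of GRCr8 (22077 features matched, and Arpp21 by symbol alone): 23446 features had 1 symbol, 505 several and 44891 none. The feature with the highest mean was kept for the 1182 genes with several, which left 22093 genes with no filter on low values, of which 10520 were below the negative control median. The number of arrays, 6 per group, limits the precision, and the p-values of group differences set each difference against the spread between these rats.

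A limma fit (version 3.58.1, R 4.3.3) used group as its only term, all 18 arrays and Benjamini-Hochberg adjustment over all genes at 0.05, and it was tested on simulated data. P-values of correlations came from 100000 permutations of the 18 arrays or, inside a group of 6, from all orders of the rats (Python 3.11.15, scipy 1.17.1). The 9 genes and the 13 gene lists were chosen with earlier results of these data known. Named were the 9 genes, the 4 of the other pathway genes with the smallest p in each comparison, the 6 most like and 4 most opposite genes and the defining markers. Oxt, Avp, Hcrt, Pmch and Agtr1a were named after their values were seen. Alternatives were other scalings, features, filters, variance settings and weights, the striatal marker mean as a term, a replicate block, 2 groups alone and each array left out. Same-numbered rats of different groups deviated together weakly at most (r from -0.31 to 0.29 in 18 pairs, 5 over 0.1), so the numbers were not used as pairs. In 5 of the 18 pairs the best match was the rat's own number. In shock resistant against shock sensitive rats r was 0.22, 0.05, -0.15, 0.29, -0.03 and 0.25 for replicates 1 to 6.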

Additional observations from a re-analysis of the deposited data

Results flagged for a closer look

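Control replicate 1 was far below the other 5 controls, by a gap to the nearest of them above the 95% critical value of Dixon's test for 6 samples, in 7 of 33 groups of values tested. These were Adcy5 at 13.07, Pde10a at 12.66, Pde1b at 13.22, Pde2a at 13.82, Arpp21 at 10.50, the mean of the 9 genes at 12.49 and the mean of the 17 other striatal markers at 10.77. Chance flags about 1 in 20 groups, and the 7 share 1 array and genes that vary together. Shock sensitive replicate 4 was as low but not set apart by this test, since shock sensitive replicates 5 and 6 were also low.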

How the results depend on the processing

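None of the 9 genes passed the adjusted threshold under any of the alternatives run. Of 261 alternative values per comparison (29 for each gene), the direction held in 249 for shock resistant rats against controls, 251 for shock sensitive rats against controls and 255 for shock resistant against shock sensitive rats. Many of these could not turn. The choice of genes in the fit, the variance settings, 2 groups alone and the replicate block leave a gene's difference unchanged. So does leaving out an array of the group not compared. These counts therefore do not measure stability. With the striatal marker mean as a term, the signs turned against controls in shock resistant rats for Ppp1r1b (-0.019), Pde10a (-0.13), Pde2a (-0.069), Rgs9 (-0.21) and Arpp21 (-0.11), and in shock sensitive rats for Ppp1r1b (0.036), Gng7 (0.17), Pde10a (0.0087) and Pde1b (0.096). Between shock resistant and shock sensitive rats they turned for Ppp1r1b (-0.055), Gng7 (-0.044), Pde10a (-0.14), Pde1b (-0.077), Rgs9 (-0.18) and Arpp21 (-0.080), with a median of -0.055. Without control replicate 1, alone or with shock sensitive replicate 4, shock resistant rats against controls gave -0.010 for Pde2a, -0.038 for Rgs9 and -0.040 for Arpp21, and array weights gave -0.012 for Rgs9. Without shock sensitive replicate 4, shock sensitive rats against controls gave 0.0059 for Ppp1r1b, 0.12 for Gng7, 0.016 for Pde10a and 0.051 for Pde1b, and Gng7 was 0.070 without control replicate 3 and 0.00019 after quantile normalization. With 1 array left out in turn, the ranges of the genes that turned were -0.010 to 0.20 for Pde2a, -0.038 to 0.42 for Rgs9 and -0.040 to 0.21 for Arpp21 in shock resistant rats against controls. In shock sensitive rats against controls they were -0.53 to 0.0059 for Ppp1r1b, -0.30 to 0.12 for Gng7, -0.65 to 0.016 for Pde10a and -0.43 to 0.051 for Pde1b. The cause of these turns was not tested. Each array left out in turn moved the median of the 9 genes between 0.10 and 0.54, between -0.43 and -0.026, and between 0.37 and 0.72 in the 3 comparisons as ordered above.

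Over all genes, 4 passed in shock resistant rats against controls, 0 with all features tested, 0 with genes at or above the negative control median, 0 with 2 groups alone, 9 with array weights, 2 with the replicate block, which called 0 of the 9 genes, and 0 to 7 with 1 array left out. In shock sensitive rats against controls 0 passed, and 0 to 1 with 1 array left out, beside 1345 at an unadjusted p under 0.05. In shock resistant against shock sensitive rats 0 passed, beside 1415 unadjusted, 1 with median centring and 0 to 1 with 1 array left out. The F test called 2 genes, 5 with array weights, 0 to 3 with 1 array left out, and 0 under each of quantile normalization, median centring, all features, genes at or above the negative control median, the marker mean as a term, and both low arrays left out. Quantile normalization changed the genes with an unadjusted p under 0.05 in shock resistant rats against controls from 1595 higher and 928 lower to 998 and 1025, and median centring to 722 and 1736, while all 9 genes stayed higher under both. In shock sensitive rats against controls the split moved from 1008 higher and 337 lower to 542 and 531, and to 534 and 563. Arrays give no read depth, and all 9 genes read above the negative controls.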
